A study of Mus musculus with 4 samples.

Results

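The allergic response that remains in a lung without interleukin-22 (IL-22) was described by setting 1 library of Il22 knockout mice given house dust mite (HDM) against 1 library of wild-type mice given phosphate-buffered saline (PBS), 2 of the 4 libraries of the study. All mice were C57BL/6. Mice of genotype IL22-/- had been sensitized to HDM, an airway allergen used to model asthma, and then challenged with it, and whole lungs were taken 48 h after the last dose. The PBS lungs came from wild-type mice, 24 h after PBS had been placed in the trachea. The other 2 libraries are given beside them: wild-type mice sensitized, challenged and sampled like the knockouts, and wild-type mice sampled 24 h after recombinant IL-22 in the trachea. Genotype, treatment, hours and deposited table all differ between the knockout HDM and the PBS library, so their parts in any difference cannot be told apart. Whether 1 animal or a pool went into each library, and which allele was used, is not given in the labels, and no difference has a replicate check or a p-value. In whole-lung RNA, fewer cells of a type and less RNA per cell cannot be told apart either.

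In an allergic lung, T helper and innate lymphoid cells release IL-4, IL-5 and IL-13. IL-13 and IL-4 act through the transcription factor STAT6 on epithelium and macrophages, which then make mucus, chitinase-like proteins, resistin-like molecules and chemokines for eosinophils and T cells. IL-22 is a cytokine of lymphocytes that acts on epithelium and stroma, mainly through STAT3, and is known for inducing antimicrobial proteins.

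Values are FPKM, fragments scaled by transcript length and by sequencing depth, brought to the scale of the PBS library. A difference is that of log2(FPKM + 1), knockout HDM minus PBS, which understates differences of low genes. A gene was measured if its mean over both libraries was at least 1 FPKM and was called higher or lower if the difference was at least 1 in size, which is 2-fold for abundant genes. Of 13191 measured genes, 250 were higher in the knockout HDM library, 1.90% of those measured, and 143 were lower, 1.08%. Most measured genes, 84.2%, lay within 1.5-fold, and the median difference was 0.00. Of the higher genes 33 were small RNAs and 44 predicted or unnamed genes, and of the lower genes 16 and 4. Small RNAs are shorter than most sequenced fragments, and their FPKM are unstable. The differences followed the GC content of the transcripts. Among 10 equal groups of genes by GC content, the lowest had a median difference of 0.50 and the highest -0.30, and Spearman's rho over 12974 genes, which share the same libraries, was -0.59. For the wild-type HDM library against PBS rho was -0.60, across the same pair of tables, and between both HDM libraries, within 1 table, it was 0.10. Within the other table, for the IL-22 library against PBS, it was -0.29, weaker but in the same direction. After each gene's difference was set against the median of genes of like GC content, 125 genes were higher (0.963% of 12974) and 110 lower (0.848%). Of these 105 and 98 were also called before the adjustment, and each call below that the adjustment ends is marked.

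**Figure D1:**
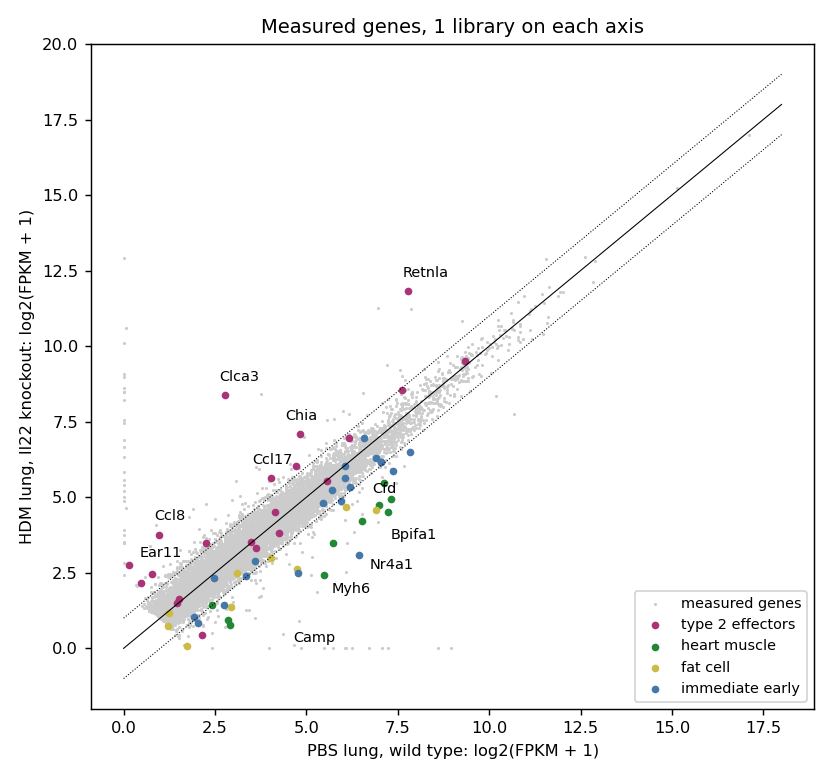
Each of the 13191 measured genes is a point, with log2(FPKM + 1) of the PBS library on the horizontal axis and of the knockout HDM library on the vertical axis. The solid line marks equal values and the dotted lines a difference of 1; type 2 genes such as Clca3 and Retnla lie above the band, and 9 of the 10 measured heart muscle markers, with 7 of the 20 immediate early genes, lie below it.

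**Figure D2:**
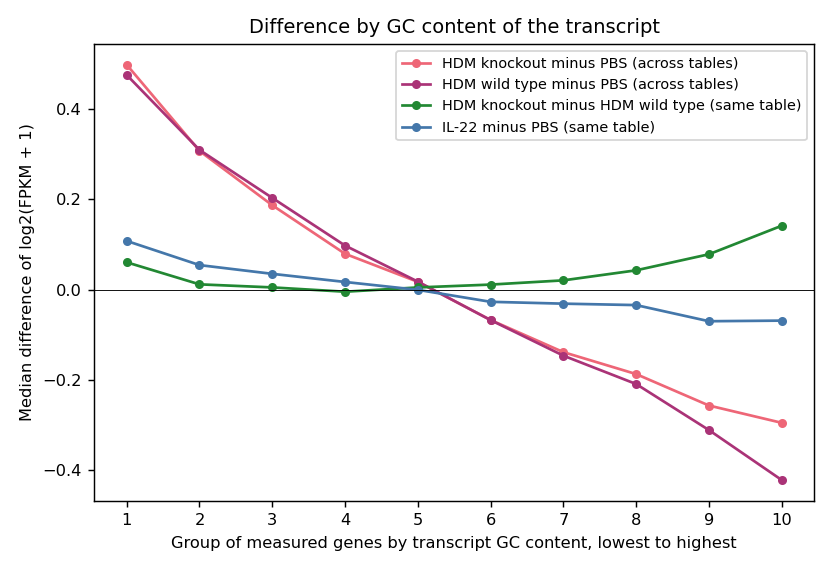
Median difference of log2(FPKM + 1) in 10 equal groups of the measured genes, ordered by GC content of the transcript, for 4 pairs of libraries. Both comparisons across the tables slope down, from 0.50 to -0.30 for the knockout HDM library and from 0.48 to -0.42 for the wild-type HDM library, while both comparisons within a table stay between -0.07 and 0.14. Within that range the IL-22 library against PBS falls from 0.11 to -0.07.

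Il22 itself (chromosome 10, 118204942 to 118210047 of mm10, protein coding) was listed at 0 in the knockout HDM library. Both libraries of unchallenged wild-type mice also list it at 0, so it checks nothing in this comparison. In the wild-type HDM library it was at 0.369 FPKM, an estimated 8 reads. Iltifb, its near-identical neighbour, was likewise at 0 in the same 3 libraries and at 0.225 FPKM with HDM in wild type.

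Effector genes of the type 2 response had the most higher members of the lists examined. Of 30 genes on the list 21 were measured, 10 of them were higher, against 1.90% of all measured genes, and 1 lower, with a median difference of 0.94 against 0.00 over all measured genes. The filter keeps genes that are low with PBS through their knockout value, and over all members, without the filter, the median was 0.38. After GC adjustment 9 were higher and 1 lower, and the median was 0.73. The wild-type HDM library stood further from PBS, with a median of 3.35 over the same genes, and the IL-22 library close to it, at 0.15.

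Clca3 (now Clca1, chromosome 3, 145003817 to 145032776), a protein secreted by goblet cells, had the largest difference outside small RNAs and predicted genes, 5.62. It was at 5.79 FPKM in the PBS library, 27.2 in the IL-22 library, 333 in the knockout HDM library and 1370.2 in the wild-type HDM library. Both HDM libraries were high, the PBS library was low, and the knockout was 57.6-fold above PBS. Retnla (chromosome 16, 48842551 to 48844461), a resistin-like molecule of airway epithelium and alternatively activated macrophages, had the second largest difference of the type 2 list, 4.02. Its level was 221 FPKM in the PBS library, 442 in the IL-22 library, 3589.7 in the knockout HDM library and 19763 in the wild-type HDM library. The knockout lay 16.3-fold above PBS and below the wild-type HDM library. Slc26a4 (chromosome 12, 31519827 to 31559969), the anion exchanger pendrin that IL-13 induces in airway epithelium, was at 0.381 FPKM in the PBS library, 0.257 in the IL-22 library, 3.44 in the knockout HDM library and 54 in the wild-type HDM library, a difference of 1.68. Fcgbp (chromosome 7, 28071236 to 28120862), a mucus protein that binds IgG Fc, was at 4.48 FPKM in the knockout HDM library and 0.716 in the PBS library, a difference of 1.67. Agr2, a disulfide isomerase for mucins that is on the goblet cell list, was just past the size rule at 1.02, with 9.06 FPKM in the knockout HDM library and 3.95 in the PBS library. It was no longer past it after GC adjustment (0.87), without scaling (just short of 1) or with the IL-22 library as baseline (0.40).

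No mucin named here was called. Muc5ac, a gel-forming mucin that goblet cells secrete, was at 0.438 FPKM in the PBS library, 0.445 in the IL-22 library, 0.985 in the knockout HDM library and 9.62 in the wild-type HDM library, 2.25-fold above PBS in the knockout, and it was under the filter in this comparison. Muc5b, the mucin of club cells, was at 8.61 FPKM in the knockout HDM library and 9.31 in the PBS library, a difference of -0.1. Among the 19 genes of goblet cells and mucus that were measured, 4 were higher (Clca3, Slc26a4, Fcgbp and Agr2), against 1.90% of all measured genes, and none lower, 13 lay below 0, and the median was -0.11, against 0.58 in the wild-type HDM library.

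Chitinases and chitinase-like proteins, secreted by epithelium and macrophages, differed in degree. Chia (now Chia1, chromosome 3, 106113229 to 106132120), the acidic mammalian chitinase, was at 27.5 FPKM in the PBS library, 30.1 in the IL-22 library, 136 in the knockout HDM library and 780.4 in the wild-type HDM library, a difference of 2.26. Chi3l4 (now Chil4, chromosome 3, 106201490 to 106219507) was at 25.4 FPKM in the PBS library, 25.8 in the IL-22 library, 64.6 in the knockout HDM library and 546 in the wild-type HDM library, a difference of 1.31. Its close paralog Chi3l3 (now Chil3), a product of macrophages, was at 376 FPKM in the knockout HDM library and 195 in the PBS library and just short of the size rule at 0.94. Chi3l1, whose human counterpart is the serum marker YKL-40, differed by 0.17. In all 4 genes the wild-type HDM library was the highest.

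Of the chemokines of the type 2 response, Ccl8, Ccl17 and Ccl11 were higher and Ccl24 and Ccl22 were not. Ccl8 (chromosome 11, 82115185 to 82116799), which draws monocytes and, through CCR8, type 2 T cells, was at 0.975 FPKM in the PBS library, 2.3 in the IL-22 library, 12.5 in the knockout HDM library and 168 in the wild-type HDM library, a difference of 2.78. Ccl17 (chromosome 8, 94810453 to 94812036), the CCR4 ligand made by dendritic cells, was at 15.3 FPKM in the PBS library, 19.1 in the IL-22 library, 48.7 in the knockout HDM library and 302 in the wild-type HDM library, a difference of 1.61. Ccl11 (chromosome 11, 82057823 to 82062955), an eotaxin, was at 3.79 FPKM in the PBS library, 5.64 in the IL-22 library, 10.3 in the knockout HDM library and 50.1 in the wild-type HDM library. Its difference of 1.23 became 0.89 after GC adjustment and 0.76 with the IL-22 library as baseline, both short of the size rule. Ccl24, the other eotaxin of the mouse, was not above PBS. Its level was 0.482 FPKM in the knockout and 0.781 with PBS, an estimated 14 and 17 reads, against 16.6 FPKM in the wild-type HDM library. Ccl22, which shares the receptor of Ccl17, differed by 0.02. Of 23 other measured chemokines, Ccl17 included, 2 were higher and 2 lower, against 1.90% and 1.08% of all measured genes, with a median of -0.01. The second higher one was Ccl27a, a chemokine for skin-homing T cells, at 1.06. The lower ones were Pf4, the platelet chemokine (-1.42), and Xcl1, which draws cross-presenting dendritic cells (-1.09, and -0.76 with the IL-22 library as baseline).

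Ear11 (now Rnase2a, chromosome 14, 51255262 to 51256112), a ribonuclease of the eosinophil-associated family, was at 0.103 FPKM in the PBS library, 0.207 in the IL-22 library, 5.84 in the knockout HDM library and 199 in the wild-type HDM library, a difference of 2.63. The knockout value rests on an estimated 76 reads against 1 with PBS, a ratio of 56.1 per unit of depth with an exact binomial 95% interval of 9.76 to 2243 that covers counting error only. Members of this family are similar in sequence, and they did not move together. Whether the counting split reads between them was not tested. Ear2 was higher by 1.12 (0.86 after GC adjustment, short of the size rule), Ear1 differed by 0.91, and Ear12 was lower by 14.1-fold, at 4.75 FPKM in the knockout HDM library and 66.8 in the PBS library. The sum of Ear1, Ear2, Ear6, Ear11 and Ear12 was 181 against 148 FPKM, a difference of 0.28. The granule proteins that define eosinophils were at or near 0 in both libraries. Prg2, the major basic protein, had an estimated 3 reads in the knockout and 7 with PBS, Epx, the eosinophil peroxidase, 0 and 2, and Prg3 was listed at 0 in both. Of 12 eosinophil markers 6 were measured, with a median of 0.49. Among them 1 was higher (Ear2) and 1 lower (Alox15), against 1.90% and 1.08% of all measured genes.

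Of other genes that alternatively activated macrophages are known for, Arg1 and Mrc1 were short of the size rule and Fbp1 was too low to be measured. Arg1, arginase, was at 2.08 FPKM in the knockout HDM library and 1.84 in the PBS library, a difference of 0.12, while the wild-type HDM library had 18. Fbp1, a gluconeogenic enzyme, was under the filter at 0.516 against 0.162 FPKM, with 22.7 in the wild-type HDM library. It rests on an estimated 17 reads in the knockout and 4 with PBS, a ratio of 3.13 per unit of depth with a 95% interval from 1.02 to 12.8 that covers counting error only. Mrc1, the mannose receptor, differed by -0.29. Alox15, the 12/15-lipoxygenase that IL-13 induces in human airway epithelium, was the only member of the list that was lower. It was at 3.45 FPKM in the PBS library, 2.73 in the IL-22 library, 0.372 in the knockout HDM library and 5.45 in the wild-type HDM library, a difference of -1.7, with the knockout lowest of the 4 libraries. Retnlb, a resistin-like molecule of goblet cells, was listed at 0 in the knockout and PBS libraries and was at 3.23 FPKM in the wild-type HDM library.

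**Figure D3:**
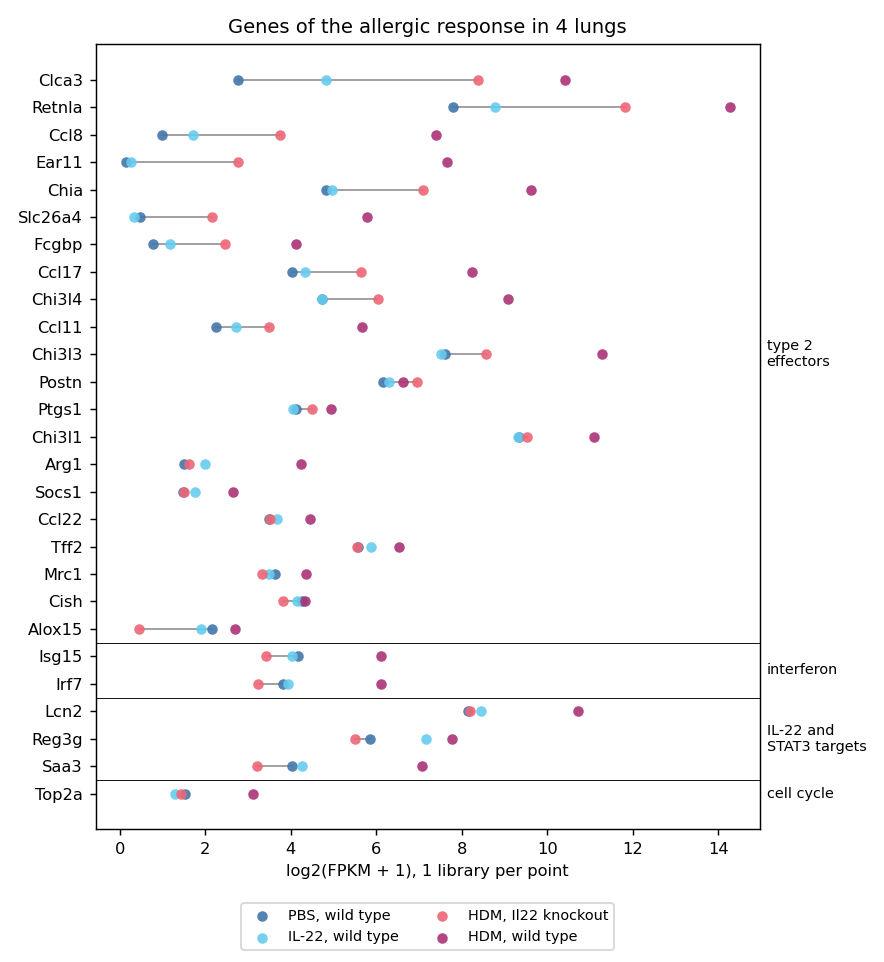
Log2(FPKM + 1) of the measured type 2 effector genes, ordered by the difference between the knockout HDM and PBS libraries, and of 6 genes of other groups; each point is 1 library and a grey line joins PBS and knockout HDM. From Clca3 to Ccl11 the knockout HDM points lie to the right of PBS and left of wild-type HDM, while for the interferon, STAT3 target and cell cycle genes they lie at or left of PBS.

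The cytokines of this response were near the limit of detection. Il5, the eosinophil growth factor, had an estimated 9 reads in the knockout HDM library and 0 in the PBS library, and the exact binomial 95% interval of their ratio per unit of depth starts at 1.46, from counting error only. Il13 had 0 and 3 reads, and Il4 1 and 2, so that no difference was detectable at this depth. The wild-type HDM library had 12, 19 and 2 reads of Il5, Il13 and Il4. Il33, the alarmin of epithelium that activates innate lymphoid cells, was at 59.5 FPKM in the knockout HDM library and 36.5 in the PBS library, a difference of 0.69 that is short of the size rule. In the wild-type HDM library it was at 169.9 FPKM. None of the 9 measured type 2 cytokines, alarmins and their receptors was higher or lower, against 1.90% and 1.08% of all measured genes. Their median was 0.2. Igj (now Jchain, chromosome 5, 88519809 to 88527891), the joining chain of secreted IgA and IgM, was at 0.841 FPKM in the PBS library, 2.41 in the IL-22 library, 15.8 in the knockout HDM library and 25.2 in the wild-type HDM library, a difference of 3.19. It was low with PBS and higher in both HDM libraries. The other 12 of 13 measured B cell and plasma cell markers did not pass the size rule, and the list's median was -0.14.

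The proximal promoters of the higher type 2 genes were searched for the STAT6 motif TTCNNNNGAA, which reads the same on both strands, in the 250 bases before the RefSeq start. Windows were given for 8 of the 10 higher genes. Of these genes 2, Retnla and Ccl17, held the motif in any of their windows. Of all 32851 single windows 5.85% held it, which is a share of windows and not of genes. The stretches below, from RefSeq on GRCm38.p6 (mm10), show these matches because both genes are among those described above; capitals mark the motif. The match starts 145 bases before the RefSeq start of Retnla (chr16:48842419-48842518, plus strand) and 154 bases before that of Ccl17 (chr8:94810254-94810353, plus strand). For Retnla this RefSeq start lies inside the span of the gene given above, not at its first base. A match describes the letters only.
Retnla: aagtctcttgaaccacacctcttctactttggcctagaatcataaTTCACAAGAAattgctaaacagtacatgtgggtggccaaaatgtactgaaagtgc
Ccl17: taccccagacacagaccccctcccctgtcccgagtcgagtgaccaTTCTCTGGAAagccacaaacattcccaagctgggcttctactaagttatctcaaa

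Lists of interferon, cell cycle and STAT3 target genes, with medians above 0 in the wild-type HDM library, had medians near PBS in the knockout. Over all measured genes 1.90% were higher and 1.08% lower, so an absence of calls in lists of this size says little. Of 26 measured genes of the type I interferon response none passed the size rule, and their median was -0.22, against 1.24 in the wild-type HDM library. Isg15, the ubiquitin-like interferon product, was at 17.1 FPKM in the PBS library, 15.3 in the IL-22 library, 9.65 in the knockout HDM library and 67.7 in the wild-type HDM library. Irf7, a transcription factor of that response, was at 13 FPKM in the PBS library, 14.4 in the IL-22 library, 8.41 in the knockout HDM library and 68.2 in the wild-type HDM library. In both genes the knockout stood lowest of the 4 libraries. Of 20 measured cell cycle genes none passed the rule, with a median of -0.08 against 0.98 in the wild-type HDM library. Top2a, which untangles DNA for cell division, was at 1.68 FPKM in the knockout HDM library and 1.87 in the PBS library. Of 24 interferon gamma and antigen presentation genes 1 was lower, against 1.08% of all measured genes, and the median was -0.16. The lower gene was the peptide transporter Tap2 (-1.13, and -0.88 after GC adjustment). Of 23 measured IL-22 and STAT3 targets of epithelium none passed the rule, with a median of -0.15 against 0.42. Reg3g (chromosome 6, 78466269 to 78468872), an antibacterial lectin that IL-22 induces, was at 57.2 FPKM in the PBS library, 142 in the IL-22 library, 44.3 in the knockout HDM library and 218 in the wild-type HDM library, a difference of -0.36. The knockout was the lowest of the 4, and with the IL-22 library as baseline the difference was -1.66. Lcn2, the lipocalin that binds bacterial siderophores, was equal to PBS within 0.05, with 290.2 FPKM in the knockout HDM library and 281 in the PBS library, against 1697 in the wild-type HDM library. Saa3, an acute phase protein, was at 8.33 FPKM in the knockout HDM library and 15.3 in the PBS library, a difference of -0.8, and at 132 in the wild-type HDM library. Mmp12, the macrophage elastase, was short of the rule at 0.87, with 2.3 FPKM in the knockout HDM library and 0.806 in the PBS library and 38.3 in the wild-type HDM library.

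**Figure D4:**
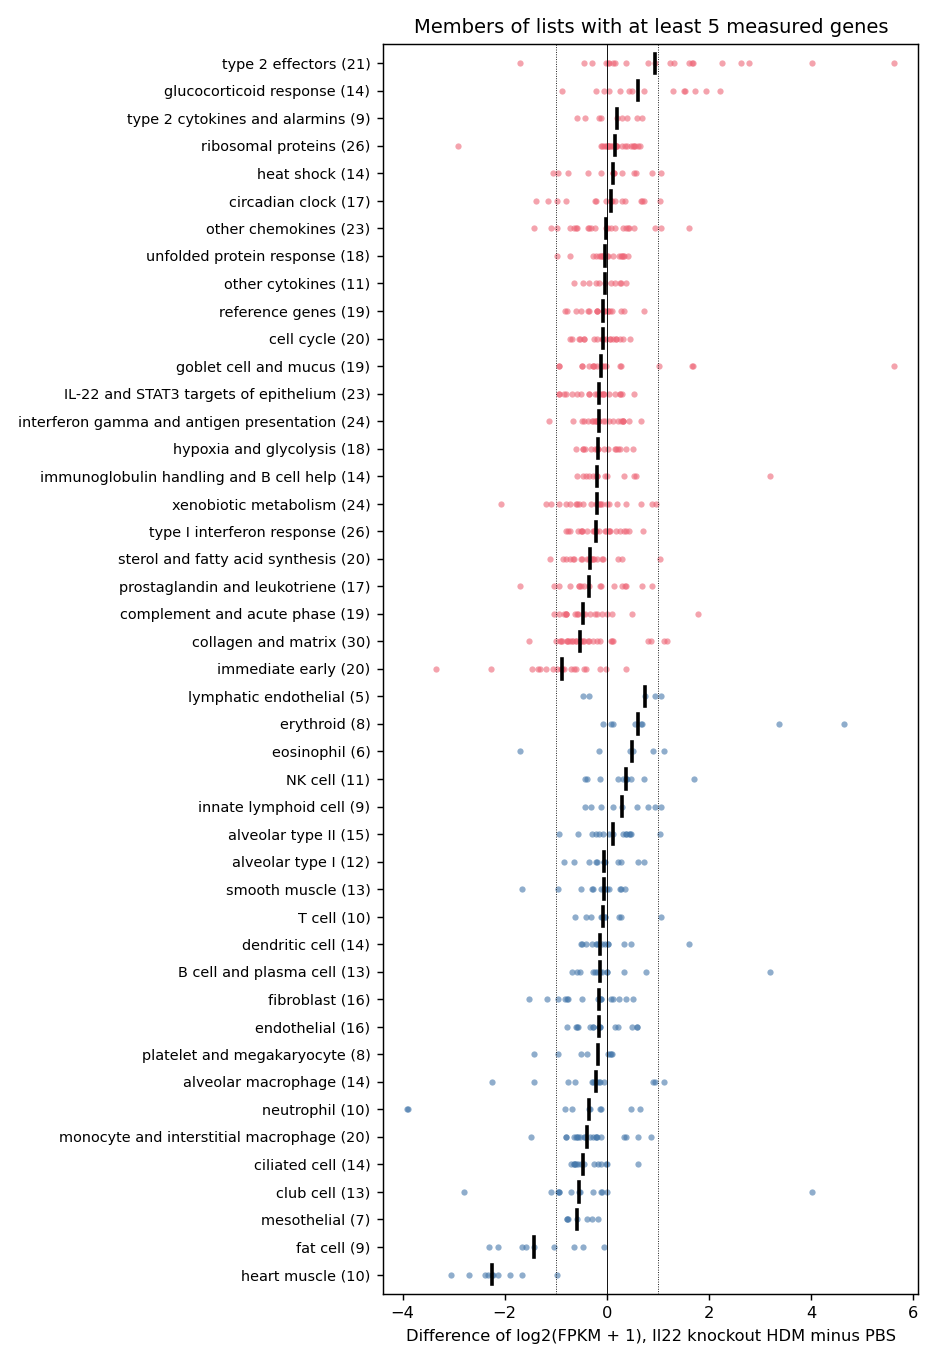
Each row is a list with at least 5 measured genes (the number in brackets), gene lists in red and cell type markers in blue, ordered by median within each kind. Points are genes placed by their difference between the knockout HDM and PBS libraries, black bars are medians and dotted lines mark the size rule; type 2 effectors have the highest median, 0.94, and heart muscle markers the lowest, -2.25.

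A second group of higher genes responds to glucocorticoids. Of 14 genes on the list, all measured, 6 were higher, against 1.90% of all measured genes, and none lower, with a median of 0.6, and the same 6 stayed higher after GC adjustment (median 0.66). Fkbp5 (chromosome 17, 28399094 to 28517527), the immunophilin that feeds back on the glucocorticoid receptor, was at 6.8 FPKM in the PBS library, 5.75 in the IL-22 library, 29 in the knockout HDM library and 21.6 in the wild-type HDM library, a difference of 1.94. Angptl4 (chromosome 17, 33773750 to 33781830), an inhibitor of lipoprotein lipase that fasting also induces, was at 12 FPKM in the PBS library, 20.8 in the IL-22 library, 59.8 in the knockout HDM library and 48 in the wild-type HDM library, a difference of 2.22. For both genes the 2 HDM libraries were high and the other 2 low. Pdk4, the kinase that closes pyruvate dehydrogenase, differed by 1.72 and Mt2, a metallothionein, by 1.53. Named as examples after their values were seen, Zbtb16, a zinc finger repressor, differed by 1.5 and Klf9, a Krüppel-like factor, by 1.3. Others of the list did not follow: Tsc22d3, the leucine zipper GILZ, differed by 0.72, Per1, a clock repressor, by -0.21 and Dusp1, a phosphatase that is also on the immediate early list, by -0.89. Windows were given for 4 of the 6 higher genes. None of these windows held the glucocorticoid response element GNACANNNTGTNC and 0.387% of all windows did, which says only that these letters are not in these bases.

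Calcrl, Cav2, Npr3 and Ogn stood among the 20 largest higher differences. Calcrl (chromosome 2, 84330626 to 84425411), the receptor for calcitonin gene-related peptide and adrenomedullin, was at 62.7 FPKM in the PBS library, 82 in the IL-22 library, 232 in the knockout HDM library and 116 in the wild-type HDM library, a difference of 1.87. Cav2, a caveolin, differed by 1.82, Npr3, the clearance receptor of natriuretic peptides, by 1.86, and Ogn, the matrix proteoglycan osteoglycin, by 1.88. In all 4 the knockout was the highest of the 4 libraries. These genes have low GC content and smaller differences after adjustment, 1.29, 1.24, 1.6 and 1.3, each still past the size rule. Fam107a (chromosome 14, 8296274 to 8318023), a stress-induced actin-binding protein, was at 3.74 FPKM in the PBS library, 4.98 in the IL-22 library, 26.5 in the knockout HDM library and 9.47 in the wild-type HDM library, a difference of 2.54 before and 2.53 after adjustment. None of 16 measured endothelial markers was higher or lower, against 1.90% and 1.08% of all measured genes, and their median was -0.15. Of 30 collagen and matrix genes 2 were higher and 1 lower, against 1.90% and 1.08% of all measured genes. The higher ones were Spp1, osteopontin (1.17), and Lox, lysyl oxidase (1.12), both short of the rule after adjustment at 0.83 and 0.86. Col1a1, the main chain of type I collagen, was lower in the knockout by 2.94-fold, at 82.6 FPKM in the PBS library, 77.9 in the IL-22 library, 28 in the knockout HDM library and 38.4 in the wild-type HDM library, a difference of -1.52, and the median of the list was -0.52. Zinc finger genes named Zfp were grouped after their values were seen. Their median against PBS was 0.17 in the wild-type HDM library, before any adjustment. Of 308 measured, 22 were higher and 2 lower, against 1.90% and 1.08% of all measured genes, and none was called after adjustment, with a median of 0.34 before and 0.17 after.

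Several of the largest differences were between near-identical copies. Amd1 and Amd2, copies of the polyamine enzyme S-adenosylmethionine decarboxylase, changed places between the tables: Amd1 was at 24.3 FPKM in the knockout HDM library and 0.0465 in the PBS library, and Amd2 at 0.0702 and 24.1. Their sum was 24.4 and 24.1, a difference of 0.01. Oaz1-ps, a pseudogene of ornithine decarboxylase antizyme, was at 27.7 FPKM with PBS and near 0 in both HDM libraries. Its sum with Oaz1 was 262 FPKM in the knockout HDM library and 435 in the PBS library, a difference of -0.73. The haemoglobin gene Hba-a2 was higher by 3.37 while its copy Hba-a1 differed by -0.08, and their sum by 0.29. The beta chains Hbb-b1, Hbb-b2 and Beta-s summed to 11150.3 FPKM in the knockout and 4999 with PBS, a difference of 1.16. Alas2, the haem synthesis enzyme of red cell precursors, differed by 0.66. Rps27, a ribosomal protein gene, was at 1632 FPKM in the PBS library, 1511 in the IL-22 library, 216 in the knockout HDM library and 17.7 in the wild-type HDM library, while the 26 measured ribosomal protein genes had a median of 0.15. Values of such copies are uncertain where the counting could split reads between them, which was not tested.

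Markers of heart muscle, which in mice also sheathes the pulmonary veins, had the lowest median of the lists examined. Of 12 such markers 10 were measured and 9 were lower, against 1.08% of all measured genes, with a median of -2.25, and all 10 were lower after GC adjustment. Myh6 (chromosome 14, 54941921 to 54966927), the heavy chain of atrial myosin, was at 43.7 FPKM in the PBS library, 48.1 in the IL-22 library, 4.36 in the knockout HDM library and 13.8 in the wild-type HDM library, a difference of -3.06. Tnni3 (chromosome 7, 4518305 to 4524229), cardiac troponin I, was at 149 FPKM in the PBS library, 181 in the IL-22 library, 21.9 in the knockout HDM library and 60.5 in the wild-type HDM library, a difference of -2.71. Nppa, the atrial natriuretic peptide, was at 6.54 FPKM in the PBS library, 21.9 in the IL-22 library, 0.717 in the knockout HDM library and 10.2 in the wild-type HDM library. The knockout was the lowest of the 4 libraries for each of these 3 genes, and for Nppa the wild-type HDM library was above PBS. Myl7 and Myl4, atrial myosin light chains, differed by -2.39 and -2.33, and Sln, sarcolipin of the calcium pump, by -2.26. Muscle genes outside the list were lower too: Tcap, titin cap, by 6.72-fold and Mb, myoglobin, by 5.83-fold. The list's median was -0.87 in the wild-type HDM library and 0.48 in the IL-22 library, both against PBS. Smooth muscle markers had a median of -0.05, with Actc1, cardiac actin, the only one lower, and of -1.05 with the IL-22 library as baseline.

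The heart muscle genes were searched for the CArG box, the site that serum response factor binds, which reads the same on both strands. Windows were given for 8 of the 9 lower genes, and 3 of these genes, Myl7, Actc1 and Myl3, held it in any of their windows. Of all single windows 1.47% held it, which is a share of windows and not of genes. The stretches show where the box sits, in capitals: 61 bases before the start in Myl7 (chr11:5898789-5898888, minus strand), 47 in Actc1 (chr2:114052876-114052967, minus strand) and 85 in Myl3 (chr9:110763548-110763647, plus strand), from RefSeq on GRCm38.p6.
Myl7: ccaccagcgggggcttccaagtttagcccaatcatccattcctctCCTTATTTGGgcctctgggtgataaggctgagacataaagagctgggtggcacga
Actc1: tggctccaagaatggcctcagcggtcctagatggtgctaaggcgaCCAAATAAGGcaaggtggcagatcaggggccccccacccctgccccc
Myl3: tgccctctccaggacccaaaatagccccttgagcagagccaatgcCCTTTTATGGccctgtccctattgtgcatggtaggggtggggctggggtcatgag

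Fat cell genes were lower in 6 of 9 measured markers, against 1.08% of all measured genes, and in 5 after GC adjustment. The median was -1.43, and -0.83 without the filter on low values. Cfd (chromosome 10, 79890853 to 79892655), the complement factor adipsin, was at 118 FPKM in the PBS library, 233 in the IL-22 library, 23 in the knockout HDM library and 55.2 in the wild-type HDM library, a difference of -2.31. Car3, carbonic anhydrase III of fat and muscle, was at 26 FPKM in the PBS library, 84.3 in the IL-22 library, 5.15 in the knockout HDM library and 15.9 in the wild-type HDM library, a difference of -2.13. Adipoq, adiponectin, differed by -1.58, Plin1, the coat protein of lipid droplets, by -1.67, and Fabp4, a fatty acid carrier that macrophages also make, by -1.43. For Cfd, Car3 and Adipoq the knockout was lowest and the IL-22 library highest, and with the IL-22 library as baseline the list's median was -2.25.

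Immediate early genes, which cells switch on within minutes of a stimulus, were mostly below PBS. Of 20 genes on the list, all measured, 7 were lower, against 1.08% of all measured genes, and none higher, 19 lay below 0, and the median was -0.88. After GC adjustment 6 were lower (Ier2 no longer) and the median was -0.71. Nr4a1 (chromosome 15, 101254269 to 101274795), an orphan nuclear receptor, was at 85.7 FPKM in the PBS library, 52.6 in the IL-22 library, 7.54 in the knockout HDM library and 7.58 in the wild-type HDM library, a difference of -3.34. Egr1, a zinc finger transcription factor, was at 26.1 FPKM in the PBS library, 10.3 in the IL-22 library, 4.66 in the knockout HDM library and 5.38 in the wild-type HDM library, a difference of -2.26 that was -0.99 with the IL-22 library as baseline. Both HDM libraries were low for these genes and PBS was highest. Cyr61, a matricellular protein, differed by -1.48 (-0.59 against the IL-22 library), and Klf2, a factor of endothelium and T cells, by -1.34. The prototype Fos was short of the rule at -0.71. In the wild-type HDM library the list's median was -0.72. Windows were given for 4 of the 7 lower genes. None of these windows held the cyclic AMP response element TGACGTCA, and 1.55% of all windows did.

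Ngp and Camp, granule genes of neutrophil precursors, were high with PBS. Ngp (chromosome 9, 110419747 to 110423012), the neutrophilic granule protein, was at 26.8 FPKM in the PBS library, 14.5 in the IL-22 library, 0.858 in the knockout HDM library and 0.681 in the wild-type HDM library, a difference of -3.9. Camp (chromosome 9, 109847379 to 109849617), the cathelicidin, was at 19.4 FPKM in the PBS library, 11 in the IL-22 library, 0.378 in the knockout HDM library and 0.103 in the wild-type HDM library, a difference of -3.89. Both HDM libraries were low for both genes. Elane, the neutrophil elastase of earlier precursors, was listed at 0 in both HDM libraries and at 1.88 FPKM with PBS. Markers of mature neutrophils differed less: S100a8 by -0.36, S100a9 by -0.69, Csf3r, the receptor for the growth factor G-CSF, by -0.13 and Cxcr2, a chemokine receptor that brings neutrophils into tissue, by 0.46. Over 10 measured neutrophil markers, with 2 lower against 1.08% of all measured genes, the median was -0.35.

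**Figure D5:**
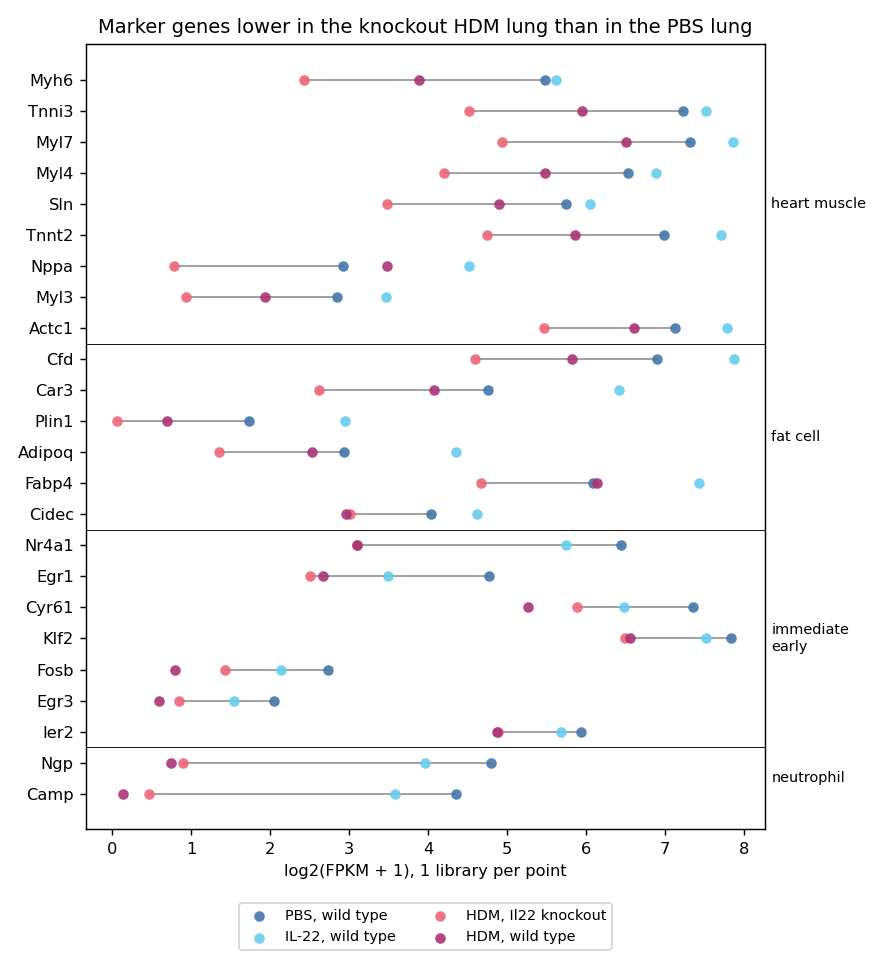
Log2(FPKM + 1) in each of the 4 libraries for the called members of 4 marker lists, with a grey line from PBS to knockout HDM. In heart muscle genes the knockout HDM point is the lowest of the 4, and in the neutrophil granule and immediate early genes both HDM points lie to the left of the PBS and IL-22 points.

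Single markers of club cells and alveolar macrophages were also among the lower genes. Bpifa1 (chromosome 2, 154142880 to 154149219), which epithelium of the large airways secretes, was at 124 FPKM in the PBS library, 312 in the IL-22 library, 17 in the knockout HDM library and 21.9 in the wild-type HDM library, a difference of -2.79. Both HDM libraries were below PBS and the IL-22 library was above it. Cyp2a5 (chromosome 7, 26835305 to 26843548), a cytochrome P450 of the airway epithelium, was at 90.5 FPKM in the PBS library, 87.5 in the IL-22 library, 20.7 in the knockout HDM library and 22.4 in the wild-type HDM library, a difference of -2.07, and the sum with its near-identical neighbour Cyp2a4 differed by -2.04. Cyp2f2, the P450 that marks club cells, was at 1351 FPKM in the knockout HDM library and 2869 in the PBS library. Its difference of -1.09 was -0.97 after GC adjustment, just short of the rule. Scgb1a1, the secretoglobin that defines club cells, differed by -0.12, and the 13 measured club cell markers had a median of -0.56. Marco (chromosome 1, 120474538 to 120505024), a scavenger receptor of alveolar macrophages, was at 25.3 FPKM in the PBS library, 21 in the IL-22 library, 4.53 in the knockout HDM library and 3.13 in the wild-type HDM library, a difference of -2.25. Other markers of these cells differed among themselves. Siglec5 (Siglecf) stayed near PBS at -0.15, Pparg at -0.23 and Car4 at -0.28. Fabp4 was lower (-1.43) and Ear2 higher (1.12, and 0.86 after GC adjustment), with Chi3l3 at 0.94 and Ear1 at 0.91 short of the rule. Of 14 measured markers 3 lay above 0 and 11 below, and the median was -0.21. By the size rule 1 was higher and 2 lower, against 1.90% and 1.08% of all measured genes. Hamp, the iron hormone hepcidin, is on neither the club cell nor the alveolar macrophage list. Its level was 34.2 FPKM in the PBS library, 55.4 in the IL-22 library, 4.42 in the knockout HDM library and 15.8 in the wild-type HDM library. The difference was -2.7. Alveolar type II cell markers had a median of 0.11 and type I cell markers -0.05.

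Clock genes differed in both directions. Dbp (chromosome 7, 45705088 to 45710203), a transcription factor driven directly by the clock, was at 132 FPKM in the PBS library, 91.6 in the IL-22 library, 49.7 in the knockout HDM library and 16 in the wild-type HDM library, a difference of -1.4, which was -0.87 with the IL-22 library as baseline. Bhlhe41, a repressor of the clock, differed by -1.16 (-0.66 against the IL-22 library). Clock was higher by 1.05, which became 0.6 after GC adjustment. Arntl, its partner, differed by 0.36. The time of day at which lungs were taken is not given in the labels.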

How the data were processed

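The authors deposited FPKM values in 2 tables of 23746 rows, 1 for the HDM libraries and 1 for the PBS and IL-22 libraries. Per the submitters' processing notes the authors used CASAVA 1.8.2, TopHat2, Cufflinks 2.2.1 and mm10; their settings are not given in the sources. RNA came from frozen lungs, per the labels' protocols. Rows were joined on symbol and RefSeq accession, since 4564 stand in another order. In 25 rows the symbol had become a date and was restored. Rows of 1 symbol were summed, which left 23284 genes. Columns were scaled to PBS by the median ratio of genes at 1 FPKM or more (factors 0.980 for wild-type HDM, 0.978 for knockout HDM and 1.03 for IL-22). Depth, estimated from the steps of low values, was 1.36 times that of PBS in the knockout HDM library, 1.25 in wild-type HDM and 1.43 in IL-22; about 65% of low values came within 0.1 of a whole read, so single read numbers are approximate. Coordinates are from GENCODE M21 (mm10). The GC adjustment (20 bins, 98.4% of measured genes) was added after seeing the data.

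The members and lists (24 gene lists and 28 marker lists) were chosen with earlier results of these data known. Genes were named by a rule: the 20 largest differences each way outside predicted genes, small RNAs and ribosomal pseudogenes, up to 4 per list, and a set named whatever their values; other members are examples chosen after their values were seen. With 1 library per group no p-value was computed. In simulated data of 13181 genes, 100 of 100 genes raised 3-fold and 90 of 100 lowered 3-fold were called, and 100 and 89 in 13170 genes with a GC slope. The changed genes were drawn from a floor above the filter of 1 FPKM, so recovery of changed genes with values under that floor was not simulated. Only counting noise was added, and spread between animals was not simulated. Alternatives were other scalings, a pseudocount of 0.1, other filters, a size rule of 1.5, no small RNAs and another baseline. Tools were pandas 2.3.3 and numpy 2.4.6 under Python 3.11.15, scipy 1.17.1 for intervals and correlations, and matplotlib 3.10.9.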

Additional observations from a re-analysis of the deposited data

Results flagged for a closer look

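For 3 called genes the 2 HDM libraries lay on opposite sides of PBS, each past the size rule. The differences between the effects were not tested. Btg3, an antiproliferative gene, had differences from PBS of -1.01 in the knockout HDM library and 1.69 in the wild-type HDM library, and it was listed near 0 in the IL-22 library. Hspa1a, the inducible heat shock protein, had -1.06 and 1.21, and its knockout difference was -0.77 after GC adjustment. Snord22, a small nucleolar RNA whose FPKM is unstable because of its length, had -1.31 and 1.47.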

How the results depend on the processing

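None of the 82 named genes past the size rule changed direction under the alternatives that measured it. The 250 higher and 143 lower genes became 451 and 250 with a pseudocount of 0.1 and 74 and 60 with a size rule of 1.5. With the IL-22 library as baseline they became 150 and 239, of which 120 and 89 were also called against PBS. The GC adjustment, chosen after seeing the data, gave 125 and 110, of which 105 and 98 were among the 250 and 143. Other scalings, filters of none or 5 FPKM, leaving out small RNAs and the mean of both baselines gave 180 to 282 higher and 103 to 187 lower genes. Of the 82, 28 lost the call with the size rule of 1.5, 15 with GC adjustment (4 more have no GC value), 16 against the IL-22 library, 12 against the mean of both baselines, 2 without scaling and 1 with the scaling over genes at 10 FPKM or more, and 10 were under the 5 FPKM filter. Of 52 list medians, 4 moved by over 1.5-fold without a filter, 3 with the 5 FPKM filter and 3 against the IL-22 library. Among them, the innate lymphoid markers went from 0.29 to -0.31 and the skeletal muscle markers from -0.47 to -2.15 at 5 FPKM, and the eosinophil chemokines and receptors from 0.96 to 0.11 without a filter. No replicate could be left out, and no paired analysis was possible because each group has 1 library. Spread between animals was not measured, and for genes of few reads no difference smaller than counting error was detectable.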

Other observations

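Among measured markers of NK and T cells 1 each was higher and none lower, against 1.90% and 1.08% of all measured genes. NK cell markers had a median of 0.37 over 11 measured genes (0.03 after GC adjustment), and Klra8, a receptor of the Ly49 family with near-identical relatives, was the only one called, at 3.16 FPKM in the knockout HDM library and 0.284 in the PBS library. T cell markers had a median of -0.07 over 10 genes, with Il7r, the IL-7 receptor, higher by 1.06 (0.61 after GC adjustment). Lymphatic endothelial markers had a median of 0.74 over 5 genes (0.4 after adjustment, and 0.00 without the filter on low values). Lyve1, their hyaluronan receptor, was higher by 1.05 (0.84 after adjustment). Ccl21a, the chemokine that guides dendritic cells into lymph vessels and has near-identical copies, differed by 0.94. After adjustment Ccl21a was past the size rule at 1.15, and with the IL-22 library as baseline it differed by 1.88.

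Lipid genes did not move as a group. Scd1, the stearoyl-CoA desaturase, was higher by 1.03 (0.93 after adjustment) and differed by 0.28 from the IL-22 library, and Dhcr7, of the last step of cholesterol synthesis, was lower at -1.11 and just short of the size rule after adjustment. The list's median was -0.33 over 20 genes. Fgg, the gamma chain of fibrinogen, was higher by 1.77, at 0.491 FPKM in the PBS library, 0.407 in the IL-22 library, 4.1 in the knockout HDM library and 3.58 in the wild-type HDM library, with both HDM libraries high, while complement and acute phase genes had a median of -0.46. Xist was at 4.53 FPKM in the PBS library, 5.18 in the IL-22 library, 8.42 in the knockout HDM library and 10.4 in the wild-type HDM library, so that no library lacked it.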
